A study of Mus musculus with 8 samples.

Results

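The genes described here are 10 names grouped as classic targets of the glucocorticoid receptor: the receptor itself (Nr3c1), 8 genes known to be switched on by it (Fkbp5, Tsc22d3, Zbtb16, Cebpd, Sgk1, Errfi1, Pdk4 and Tat) and Lcn13, a lipocalin. They were taken by gene name from the non-control probes of a mouse whole-genome microarray. Of the 10 names, 9 had a probe, with 10 probes among 55681 on the array, and all 9 were among the 21362 genes tested of 35715 gene names. Every one of these 10 probes was well above background on all 8 arrays, so none entered the test through 1 group alone. Lcn13 had no probe under that name.

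The tissue was the ileum, the last stretch of the small intestine, of female mice. The induced animals were Rosa26rtTA/+, Hprt Myc-Tnk1tg mice given an intraperitoneal injection of doxycycline (50 µg per g of body weight, 100 µl). The controls had the same strain in the labels and received 100 µl of 0.9% NaCl by the same route. Both groups were examined 24 h later, with 4 arrays each. The mice have rtTA, an activator of transcription that works with doxycycline, at the broadly active Rosa26 locus, and a Myc-tagged copy of Tnk1, a non-receptor tyrosine kinase, at Hprt. The labels also call the saline animals WT, give no age, and do not say in words that each array was 1 animal. The p-values therefore cover only the spread between arrays of a group, which may be technical. No group received doxycycline without the transgene, so the drug and the transgene cannot be told apart. Nor can treatment and slide row, since all doxycycline arrays lay in row 1 and all saline arrays in row 2 of 1 slide.

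The glucocorticoid receptor is a nuclear receptor that waits in the cytoplasm in a complex with HSP90 and its co-chaperones. Corticosterone, the main glucocorticoid of mice, releases it into the nucleus, where pairs of receptors bind palindromic DNA elements and raise or lower nearby genes. In the gut this pathway is known for damping inflammation, for maturing the epithelium and, together with the mineralocorticoid receptor, for sodium uptake. Corticosterone itself is not among the measurements analysed here.

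The palindrome that the receptor binds was searched for in promoter windows from RefSeq (GRCm38.p6), each reaching from 250 bases before to 50 bases after an annotated start. Such windows were found for 6 of the 10 names, 14 windows in all, of which Sgk1 had 6. The letters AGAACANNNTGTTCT, read on both strands, occurred in 1 of these 14 windows, against 3 of 32851 windows (0.00913%) over all genes. The match lay at Sgk1, at chr10:21993701-21993715 on the plus strand, and its centre was 958 bases before the most downstream of the annotated Sgk1 starts. The 250 bases before that window's start (chr10:21993640-21993889, plus strand) are shown with the match in capitals, beside those of Fkbp5 (chr17:28486150-28486399, minus strand), which held no match and is the member with the smallest p.
Sgk1: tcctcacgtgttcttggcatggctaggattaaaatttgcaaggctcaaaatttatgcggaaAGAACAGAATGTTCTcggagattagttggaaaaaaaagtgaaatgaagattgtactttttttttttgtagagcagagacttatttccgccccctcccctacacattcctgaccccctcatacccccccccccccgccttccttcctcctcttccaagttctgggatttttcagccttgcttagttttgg
Fkbp5: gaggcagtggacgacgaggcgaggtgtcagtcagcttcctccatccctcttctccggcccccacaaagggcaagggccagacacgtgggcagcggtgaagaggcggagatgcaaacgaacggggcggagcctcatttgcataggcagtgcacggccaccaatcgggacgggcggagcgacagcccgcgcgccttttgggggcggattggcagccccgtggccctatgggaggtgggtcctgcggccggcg

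A looser form, NGNACANNNTGTNCN, occurred in no further window of a member, so its count was also 1 of 14, against 155 of 32851 windows (0.472%). The 6-letter arm AGAACA, which is contained in the full palindrome, occurred in 4 of 14 windows (28.6%), against 6233 of 32851 (19%). These 4 windows belonged to Sgk1 and Tsc22d3. Among 24 other genes known to be induced by glucocorticoids, 0 held the full palindrome. The arm AGAACA was held by 4 of these 24 (16.7%), against 21.3% of 27025 genes. The looser form was held by 3 of them (12.5%), against 0.537% of all genes, each written here with all of its letters in capitals.
Mt1: GGGACATGATGTTCC
Map3k6: GGCACAGGCTGTTCC
Fam107a: TGGACATGGTGTTCT

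They lie at chr8:94178994-94179008 on the plus strand for Mt1, a metallothionein, at chr4:133240636-133240650 on the plus strand for Map3k6, a kinase, and at chr14:8309884-8309898 on the minus strand for Fam107a. None of the 3 passed the test: Mt1 differed by 0.57 on the log2 scale (limma adjusted p = 0.0504), Map3k6 by 0.57 (0.126) and Fam107a by 0.39 (0.183). A window holds only a short stretch near a start, and a missing match says only that the letters are not there.

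Levels are log2 intensity minus each array's own 75th percentile, and differences are doxycycline minus saline on that scale. Per the scanner flags, 54.8 to 57.0% of probes were well above background on the doxycycline arrays and 39.7 to 43.1% on the saline arrays. The lowest level well above background was -4.90 to -4.51 on the doxycycline arrays and -3.07 to -2.57 on the saline arrays. Undetected probes could read lower with doxycycline. Scnn1b and Pgr, well above background on no array, averaged -6.86 and -6.91 with doxycycline, against -5.03 and -4.87 with saline. The transgene check gave a difference for the Tnk1 probe toward the 5′ end (6.92-fold higher, limma adjusted p = 4.16e-04) and for Hprt (64.6-fold higher, 4.42e-05), while the Tnk1 probe toward the 3′ end differed by -0.45 (0.136). The tissue label fitted the bile acid binding protein Fabp6, which averaged 9.25 with doxycycline and 9.45 with saline. None of 6 enterocyte markers passed the test by limma, with 1, Apoa4, at an unadjusted p under 0.05. Other markers were uneven. Apoa4 read 3.64 to 4.88 with doxycycline, against 1.30, 3.69, 1.67 and -4.07 on saline arrays 1 to 4. Lct read 3.06 on saline array 3 and -2.57 or less on all other arrays. The summed level of the 6, to which Fabp6 gave the most, was 9.52 to 10.2 with doxycycline and 9.91 to 10.1 with saline. That sum therefore says little about the dimmer markers. Of hepatocyte markers, 2 of 3 tested fell, and the summed level of the list of 5 was 2.64 to 3.56 with doxycycline and 3.94 to 5.89 with saline. The highest value, 5.89, was on saline array 4, where albumin (Alb) read 3.0 against -4.66 or less on all other arrays. On that array all 5 hepatocyte markers were at their highest.

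Of the 9 genes tested, 6 were higher with doxycycline, 1 was lower and 2 did not pass the test at a limma adjusted p of 0.05. Over all 21362 genes, 5.94% were called higher and 7.9% lower, 13.8% in all. The groups did not overlap for 7 of the 9, against 21.9% of all genes. The risen members were Zbtb16, Pdk4, Fkbp5, Sgk1, Errfi1 and Tsc22d3, by 2.71-fold to 12.4-fold, and the receptor's own transcript fell. The median difference over the 9, chosen with earlier results of these data known, was 1.98, beside 0.02 over all genes tested. In bulk tissue, more or fewer cells of a type and more or less RNA per cell cannot be told apart.

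**Figure D1:**
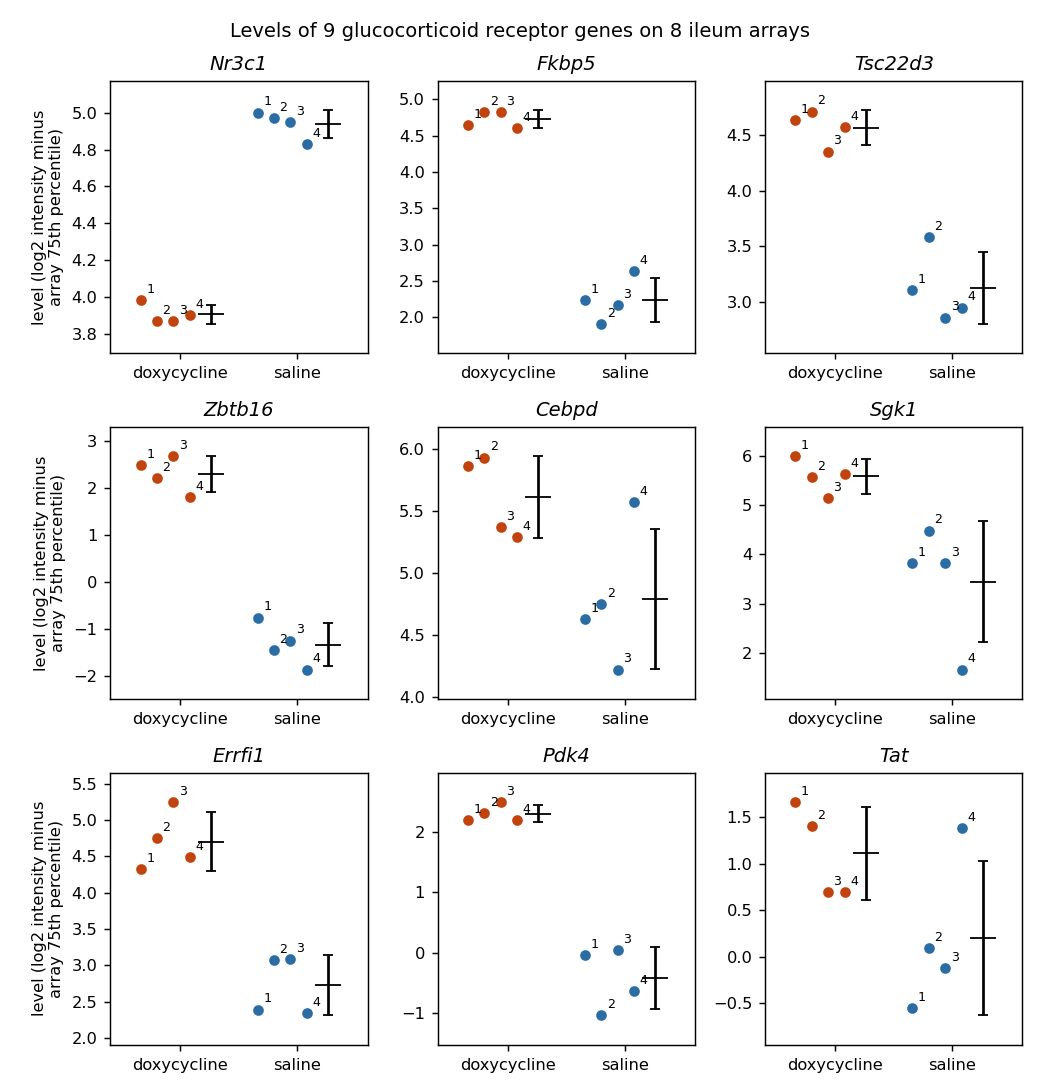
Level of each of the 9 genes on each array (log2 intensity minus the array's 75th percentile, a scale of its own per panel), doxycycline left and saline right, with array numbers beside the points and the mean ± SD (n = 4) as a black bar. The groups are apart in 7 panels and overlap for Cebpd and Tat, where saline array 4 lies within the doxycycline values.

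Nr3c1, the receptor, was lower with doxycycline. Its brighter probe (chromosome 18, 39571641 to 39571700, mm9, minus strand) read 3.98, 3.87, 3.87 and 3.90 on doxycycline arrays 1 to 4, against 5.0, 4.97, 4.95 and 4.83 on saline arrays 1 to 4. All doxycycline values lay below all saline values, and the arrays of a group were close to each other. The mean was 3.91 ± 0.054 in doxycycline ileum, against 4.94 ± 0.076 in saline ileum (SD, n = 4 each), a difference of -1.03 (SE 0.127, limma adjusted p = 0.00165), or 2.04-fold lower (95% interval 1.67 to 2.49). Its spread within groups, a pooled SD of 0.0663, was larger than that of only 0.206% of all genes.

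A second Nr3c1 probe, toward the 5′ end of the gene (39574183 to 39574242), gave the same direction. It read -0.02, -0.38, -0.01 and -0.29 with doxycycline, against 0.40, 0.43, 0.46 and 0.70 with saline. The groups again did not overlap, and the difference of -0.67 (SE 0.158) passed limma with an adjusted p of 0.0269 over all 28626 kept probes, or 1.59-fold lower (95% interval 1.24 to 2.04). The closest relative of the receptor, the mineralocorticoid receptor Nr3c2, fell by 0.80 (limma adjusted p = 0.0304), at a level where 3 of 4 saline arrays were well above background. That call was lost when doxycycline array 2, 3 or 4 or saline array 2 or 3 was left out, with adjusted p up to 0.0793. With dim values set to a common floor the difference was -0.28 (adjusted p = 0.332).

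Fkbp5 encodes a co-chaperone that lowers the hormone affinity of the receptor complex, and so closes a feedback loop. Its probe (chromosome 17, 28536060 to 28536119, mm9, minus strand) read 4.65, 4.83, 4.83 and 4.60 with doxycycline, against 2.24, 1.91, 2.17 and 2.64 with saline. The lowest doxycycline array was well above the highest saline array. Fkbp5 averaged 4.73 ± 0.12 with doxycycline, against 2.24 ± 0.30 with saline (SD, n = 4 each), a 5.60-fold rise (95% interval 4.23 to 7.43, limma adjusted p = 3.39e-04). By p, Fkbp5 ranked 13 among the 21362 genes.

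The related FK506-binding proteins gave other values. Fkbp4, the co-chaperone that favours the active receptor, differed by -0.05 (limma adjusted p = 0.927) and Fkbp1a by -0.12 (0.724). Fkbp2, which works in the endoplasmic reticulum, fell by 0.56 (0.0474), a call that was lost on leaving out any one of 6 arrays, with adjusted p up to 0.129. The differences between Fkbp5 and these relatives were not tested.

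Tsc22d3, also called GILZ, is a leucine-zipper protein through which glucocorticoids restrain NF-kB and AP-1. Its probe (chromosome X, 137074094 to 137074153, mm9, minus strand) read 4.63, 4.71, 4.35 and 4.57 with doxycycline, against 3.11, 3.58, 2.86 and 2.95 with saline. The groups did not overlap, with saline array 2 the nearest to the doxycycline arrays. Tsc22d3 averaged 4.56 ± 0.15 with doxycycline, against 3.13 ± 0.32 with saline (SD, n = 4 each), a 2.71-fold rise (95% interval 2.02 to 3.64, limma adjusted p = 0.00218). The family members Tsc22d1 and Tsc22d4 differed by -0.09 (limma adjusted p = 0.746) and 0.09 (0.703).

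Among transcription factors, Zbtb16 (PLZF), a zinc-finger factor known to be induced by glucocorticoids in many cell types, had the largest rise of the members. Its probe (chromosome 9, 48462419 to 48462478, mm9, minus strand) read 2.5, 2.22, 2.68 and 1.81 with doxycycline, against -0.76, -1.46, -1.25 and -1.87 with saline. The groups were far apart, and array 4 was the lowest in both. Zbtb16 averaged 2.30 ± 0.38 with doxycycline, against -1.34 ± 0.46 with saline (SD, n = 4 each), a 12.4-fold rise (95% interval 8.11 to 19.1, limma adjusted p = 3.70e-04). By size of rise it ranked 33 among all genes. Zbtb16 is also a factor of innate-like lymphocytes. In that marker list 2 of 4 tested genes fell, among them Tbx21, none rose by limma with 0 higher at an unadjusted p under 0.05, and the summed level was 1.30 to 1.84 with doxycycline and 1.5 to 2.35 with saline.

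Cebpd, a leucine-zipper factor of the acute-phase response and of fat cell formation, did not pass the test. Its probe (chromosome 16, 15888459 to 15888518, mm9, plus strand) read 5.86, 5.93, 5.37 and 5.29 with doxycycline, against 4.63, 4.75, 4.22 and 5.57 with saline. Saline array 4 lay above doxycycline arrays 3 and 4, so the groups overlapped. Cebpd averaged 5.61 ± 0.33 with doxycycline, against 4.79 ± 0.57 with saline (SD, n = 4 each), a difference of 0.82 (95% interval 0.15 to 1.49, limma adjusted p = 0.0956). Without saline array 4 the difference was 1.08 and the limma adjusted p 0.0211. Its relatives Cebpa and Cebpb differed by -0.79 (limma adjusted p = 0.0644) and 0.45 (0.270).

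Sgk1 is a kinase that keeps sodium channels at the cell surface by acting on the ubiquitin ligase Nedd4-2, and 1 of its promoter windows held the palindrome. Its probe (chromosome 10, 21719507 to 21719566, mm9, plus strand) read 5.99, 5.56, 5.14 and 5.63 with doxycycline, against 3.82, 4.48, 3.83 and 1.66 with saline. The groups did not overlap, but saline array 4 was far below the other saline arrays. Sgk1 averaged 5.58 ± 0.35 with doxycycline, against 3.45 ± 1.23 with saline (SD, n = 4 each), a difference of 2.13 (SE 0.538, limma adjusted p = 0.0322), or 4.39-fold higher (95% interval 1.89 to 10.2). Its pooled within-group SD of 0.905 was above that of 95.3% of genes.

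The Sgk1 call depended on which arrays were included. Without saline array 4 the difference was 1.54 (SE 0.252, limma adjusted p = 0.00977), a fold 1.51 times smaller than with all 8 arrays. Leaving out any one of doxycycline arrays 1 to 4, saline array 1 or saline array 3 ended the call, with adjusted p between 0.0621 and 0.0780. The related kinases Sgk2 and Sgk3 differed by 0.06 (limma adjusted p = 0.932) and -0.47 (0.0644), the second with a positive difference of 0.56 when a gene's probes were averaged.

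Errfi1 (MIG6) binds and inhibits receptors of the EGF family. Its probe (chromosome 4, 150242886 to 150242945, mm9, plus strand) read 4.33, 4.75, 5.25 and 4.49 with doxycycline, against 2.39, 3.07, 3.09 and 2.34 with saline. No value of one group reached the other. Errfi1 averaged 4.70 ± 0.40 with doxycycline, against 2.72 ± 0.41 with saline (SD, n = 4 each), a 3.95-fold rise (95% interval 2.60 to 5.99, limma adjusted p = 0.00243).

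Pdk4 is a mitochondrial kinase that shuts off pyruvate dehydrogenase and so spares glucose, in fasting as well as under glucocorticoids. Its probe (chromosome 6, 5433441 to 5433500, mm9, minus strand) read 2.19, 2.31, 2.49 and 2.19 with doxycycline, against -0.04, -1.04, 0.04 and -0.64 with saline. The doxycycline arrays were close together and all above the saline arrays. Pdk4 averaged 2.29 ± 0.15 with doxycycline, against -0.42 ± 0.51 with saline (SD, n = 4 each), a 6.56-fold rise (95% interval 4.43 to 9.72, limma adjusted p = 5.40e-04). The other pyruvate dehydrogenase kinases Pdk1, Pdk2 and Pdk3 differed by -0.32, -0.71 and -0.35, with limma adjusted p of 0.252, 0.149 and 0.203.

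Tat, tyrosine aminotransferase, breaks down tyrosine and is the classic glucocorticoid-induced enzyme of the liver. Its probe (chromosome 8, 112523207 to 112523266, mm9, plus strand) read 1.66, 1.40, 0.69 and 0.69 with doxycycline, against -0.55, 0.09, -0.12 and 1.38 with saline. Saline array 4 lay above doxycycline arrays 3 and 4, while the other saline arrays lay below all doxycycline arrays. Tat averaged 1.11 ± 0.50 with doxycycline, against 0.20 ± 0.83 with saline (SD, n = 4 each), a difference of 0.91 (95% interval -0.03 to 1.85, limma adjusted p = 0.171). Without saline array 4, the array on which the hepatocyte markers were highest, the difference was 1.30 and the limma adjusted p 0.0279. The part of the hepatocyte genes in the Tat value of that array was not tested.

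**Figure D2:**
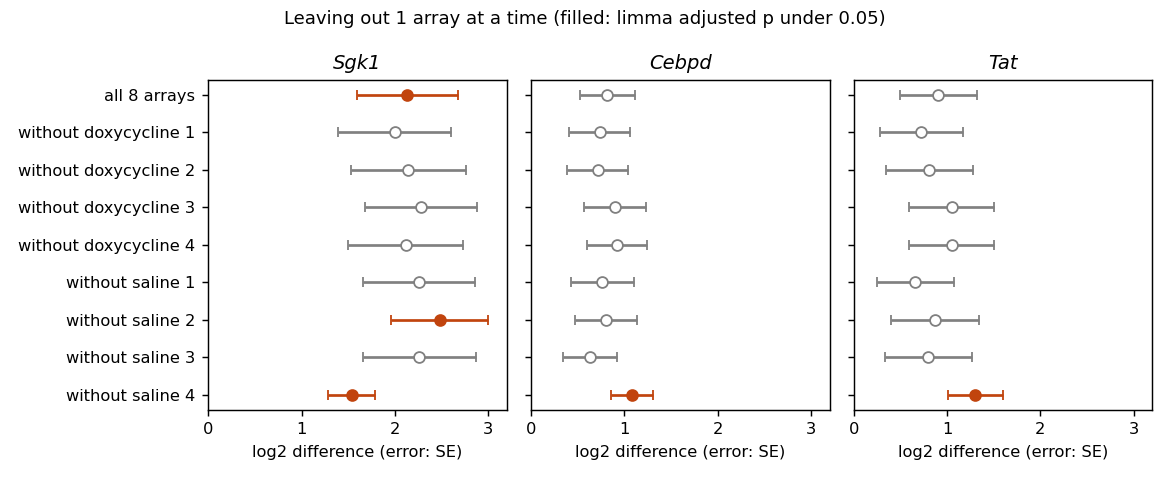
Difference of Sgk1, Cebpd and Tat (log2, doxycycline minus saline) with all 8 arrays and with each array left out in turn; bars are SE and filled points have a limma adjusted p under 0.05. Sgk1 passes with all arrays and without saline array 2 or 4, while Cebpd and Tat pass only without saline array 4 among these settings.

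For Lcn13, the RefSeq gene table lists the name as a synonym of Obp2a, and the array had a probe named Obp2a (chromosome 2, 25557738 to 25557797, mm9, plus strand). None of the 8 arrays had it well above background, so no fold is given, and no level of Lcn13 is reported.

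**Figure D3:**
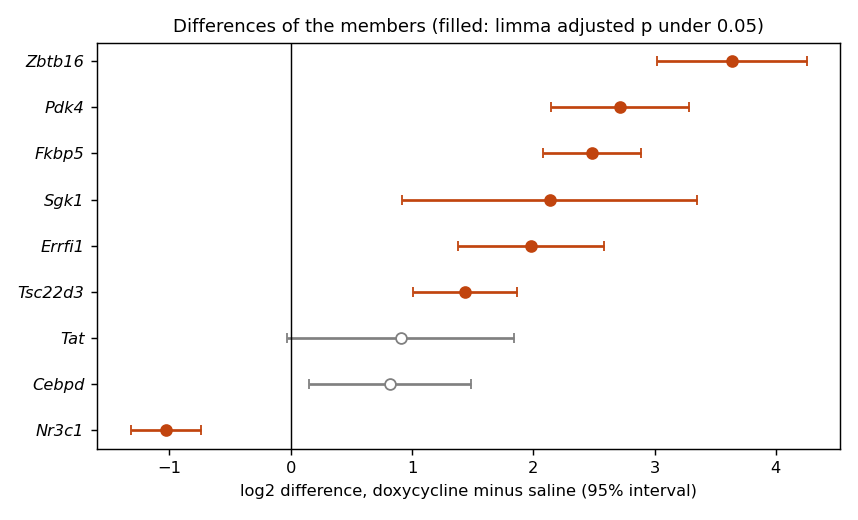
Difference (log2, doxycycline minus saline) of the 9 genes with its 95% interval, sorted by size; filled points have a limma adjusted p under 0.05. The intervals of Zbtb16, Pdk4 and Fkbp5 are clear of those of Tat, Cebpd and Nr3c1, and that of Sgk1 is the widest.

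Across the members the arrays of a group did not keep a common order. On unrounded levels, doxycycline array 4 was the lowest of its group for 4 of the 9 genes and the highest for 0. Doxycycline array 3 was the highest for 3 and the lowest for 3. Saline array 4 was the lowest for 4 genes and the highest for 3, among them Cebpd and Tat.

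Other genes known to be induced by glucocorticoids were taken from a list of 28, of which 26 were tested. Of these, 13 rose, 0 fell and 13 did not pass, with 0 lower also at an unadjusted p under 0.05 by limma, beside 5.94% of all genes called higher. The median difference was 0.77, beside 0.02 over all genes, in a list also chosen with earlier results known. The count fell to 6 without doxycycline array 3 or without saline array 1.

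Lcn2, which withholds iron from bacteria, averaged 3.83 ± 0.63 in doxycycline ileum, against -0.07 ± 0.37 in saline ileum (SD, n = 4 each), a 14.9-fold rise (limma adjusted p = 4.00e-04). Rasd1, the dexamethasone-induced Ras protein, averaged 0.63 ± 0.70 with doxycycline, against -2.89 ± 0.86 with saline, an 11.5-fold rise (0.00238). Only 1 of 4 saline arrays had Rasd1 well above background, and with normexp background its log2 difference was 2.14 in place of 3.53. Dusp1, the phosphatase that switches off p38 and JNK, averaged 1.67 ± 0.36 with doxycycline, against -0.26 ± 0.48 with saline, a 3.82-fold rise (0.00310). Per1, a repressor of the circadian clock, averaged 3.83 ± 0.36 with doxycycline, against 2.08 ± 0.46 with saline, a 3.36-fold rise (0.00452). For each of the 4 genes the doxycycline arrays were all above the saline arrays.

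The receptor's own machinery was described by 20 chaperones, co-chaperones and coregulators, all tested. By limma 0 rose and 0 fell, with 1 higher and 1 lower at an unadjusted p under 0.05, and the median difference was 0.01. The smallest p-values were those of the acetyltransferase Crebbp (0.58, adjusted p = 0.0669), the co-chaperone Bag1 (-0.47, 0.146), the mediator subunit Med1 (-0.65, 0.199) and the coactivator Ncoa2 (-0.26, 0.257). Med1 changed sign, to 0.10, when a gene's probes were averaged.

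Of 9 genes of local steroid handling, 7 were tested, of which 2 rose and 0 fell, with 1 lower at an unadjusted p under 0.05 by limma. Hsd11b1, the enzyme that regenerates corticosterone from its inactive form, read 0.5, 1.61, 1.56 and 1.78 with doxycycline, against -0.24, -0.12, -0.38 and -0.91 with saline, a 3.43-fold rise (limma adjusted p = 0.00722). H6pd, which supplies Hsd11b1 with NADPH inside the endoplasmic reticulum, read 3.14, 2.90, 3.22 and 3.12 with doxycycline, against 1.51, 1.31, 1.75 and 1.80 with saline, a 2.83-fold rise (9.20e-04). For both genes the groups did not overlap. Nr5a2, the factor that drives steroid synthesis in the gut epithelium, differed by -0.64 (limma adjusted p = 0.0506). The cholesterol carrier Star was well above background on all 4 doxycycline arrays and on no saline array. Star did not pass the test (limma adjusted p = 0.214), and its difference turned negative with normexp background. No array had the steroid-making enzymes Cyp11a1 and Cyp11b1 well above background.

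Steroid-induced ion transport genes gave mixed values among 5 tested of 7. The sodium-proton exchanger Slc9a3 (NHE3) averaged 3.06 ± 0.49 in doxycycline ileum, against 1.56 ± 0.51 in saline ileum (SD, n = 4 each), a 2.82-fold rise (limma adjusted p = 0.0168). That call was lost without saline array 3 (adjusted p = 0.0537) and when its probes were averaged (0.239). The sodium channel subunit Scnn1a averaged 0.85 ± 0.21 with doxycycline, against 1.57 ± 0.08 with saline, 1.64-fold lower (0.0173), a call lost without saline array 1 (0.0595) or 3 (0.0580). Atp1b1, a subunit of the sodium pump, differed by -0.05 (limma adjusted p = 0.913), and no array had the channel subunits Scnn1b and Scnn1g well above background.

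Of 7 glucocorticoid-induced genes of liver metabolism 5 were tested, and 0 rose and 0 fell by limma, with 2 higher and 1 lower at an unadjusted p under 0.05. Across the alternatives 0 to 2 passed as higher and 0 to 3 as lower. The values were 0.62 for the aminotransferase Got1 (adjusted p = 0.0566), 1.85 for glucose-6-phosphatase G6pc (0.0596), -0.78 for the urea cycle enzyme Cps1 (0.0638) and -0.41 for the aminotransferase Gpt (0.452). Among genes well above background on all 8 arrays, Got1 (0.0393), G6pc (0.0421) and Cps1 (0.0452) passed, and Cps1 also without saline array 2 (0.00755). G6pc read 1.87, 1.54, -0.50 and -0.42 with doxycycline, against -0.85, -1.38, -0.86 and -1.86 with saline. Doxycycline arrays 1 and 2 were high for G6pc, as they were for Tat and Cebpd.

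Inflammatory genes that the receptor is known to repress were represented by 10 tested of 17. Of these, 4 passed as higher, Il6 among them, and 0 as lower, beside 5.94% and 7.9% of all genes. By limma 1 was lower at an unadjusted p under 0.05. Ptgs2, not called, passed the filter through the doxycycline arrays alone. Icam1 and Cxcl1, also not called, were well above background on 1 of 4 saline arrays each. Across the alternatives 2 to 5 passed as higher and 0 to 4 as lower, with 2 higher among genes well above background on all 8 arrays and 4 lower without a filter on dim probes. No saline array had Il6 well above background, so it entered the test through the doxycycline arrays alone and its call supports nothing. It was at least 2.31-fold higher with doxycycline, a bound that holds for the scanner's background only, since its log2 difference was 1.12 with normexp background, and a common floor left it at 0.95 (limma adjusted p = 0.119). Tnf rose 3.05-fold (limma adjusted p = 0.00739), a log2 difference of 1.61 that was 0.82 with normexp background, though 1 of 4 saline arrays did not measure it above background. Ccl2, a monocyte attractant, rose 3.29-fold (0.0154), and the adhesion molecule Vcam1 3.44-fold (0.0188). The Vcam1 call was lost without doxycycline array 3 or 4 or saline array 1 or 3, with adjusted p up to 0.0575.

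Markers of cells that can infiltrate the gut were also measured. Of 5 macrophage and neutrophil markers S100a9 rose and Adgre1 fell, with 3 higher and 1 lower at an unadjusted p under 0.05 by limma. Cd68 differed by 0.88 (limma adjusted p = 0.109) and Csf1r by 0.44 (0.294). The groups overlapped for S100a9, at -0.49 on doxycycline array 1 and -0.37 on saline array 2. S100a8 was at least 3.58-fold higher with doxycycline, a bound on the group means. Its groups overlapped too, at -2.96 on doxycycline array 1 and -2.53 on saline array 2. S100a8 entered the test through the doxycycline arrays alone, since no saline array had it well above background. The summed level of the 5 was 4.21 to 5.33 with doxycycline and 3.60 to 4.58 with saline. The part of such cells in the rise of Tnf, Ccl2, Lcn2 or the members was not tested. Of 5 T and B lymphocyte markers, 4 adipocyte markers and 5 smooth muscle markers none passed limma, with 1, 0 and 0 at an unadjusted p under 0.05. The summed level of lymphocyte markers was 3.98 to 5.45 with doxycycline and 3.06 to 5.60 with saline. For adipocyte markers it was 3.57 to 5.94 with doxycycline and 4.47 to 6.81 with saline, and for smooth muscle markers 7.81 to 8.54 with doxycycline and 7.77 to 9.06 with saline. No array had the pancreatic acinar markers Cpa1 and Prss2 well above background, and 0 of 2 acinar markers tested passed limma, with 0 at an unadjusted p under 0.05.

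Close relatives of the members served as a comparison by sequence family. Of 20 listed, 18 were tested, and 0 rose and 2 fell (Nr3c2 and Fkbp2), with 0 higher and 5 lower at an unadjusted p under 0.05 by limma. Their median difference was -0.22, beside 1.98 for the 9 members and 0.02 for all genes. The members and lists were chosen with earlier results of these data known, so these medians only describe them. The difference between the medians was not tested.

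**Figure D4:**
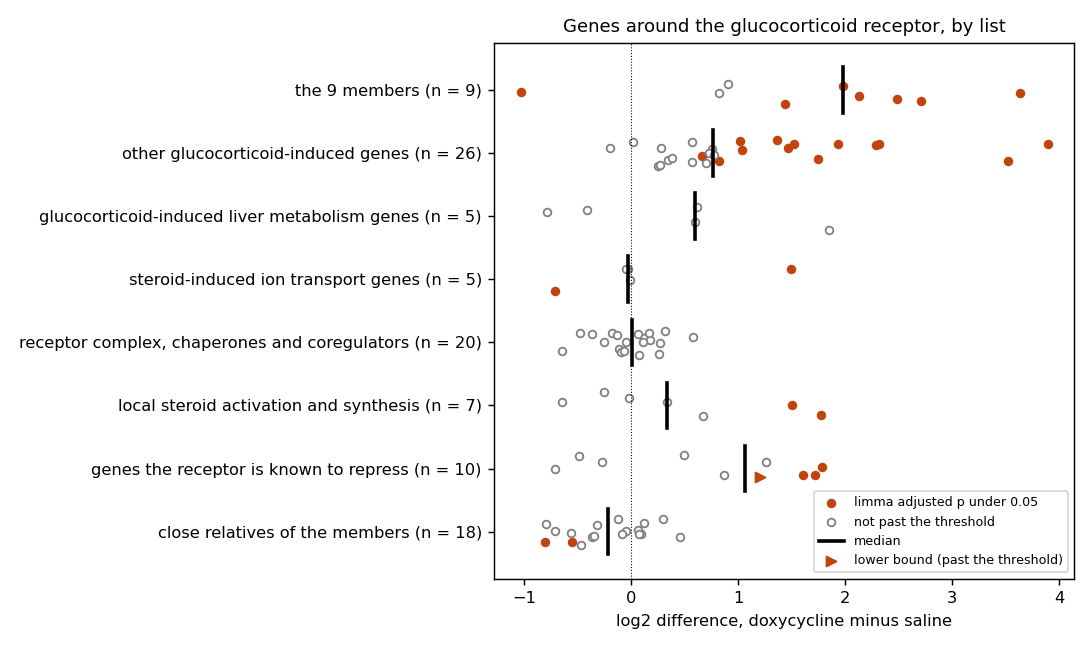
Difference (log2, doxycycline minus saline) of each tested gene in the 9 members and in 7 lists around the receptor, with the median as a bar; filled points have a limma adjusted p under 0.05, and the triangle is Il6 at its lower bound, a gene that entered through the doxycycline arrays alone. The median bar of that list takes Il6 at its measured difference, not at its bound. Filled points lie to the right for 6 of the 9 members and for 13 of the 26 other induced genes. Nr3c1 is filled to the left, Cebpd and Tat are open, and the receptor complex has no filled point.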

How the data were processed

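RNA from ileum was hybridised to 1-colour Agilent arrays, per the labels. Linear spot intensity was deposited as scanner output of Agilent Feature Extraction 10.7.3.1, a version that the submitters' processing notes and the headers both give. This processed intensity had its background subtracted, and dim spots carried a surrogate value, per the file headers. The deposited value table holds log2 values, and each column was the log2 of the processed intensity shifted by 1 constant, with genes not centred and the direction kept. The medians of the doxycycline columns 1 to 4 were -3.77, -3.92, -3.83 and -3.81, and those of the saline columns 1 to 4 were -3.97, -3.70, -3.79 and -3.86. The table served as an alternative.

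Control spots and 169 to 259 outlier spots per array were left out, spots of 1 probe were averaged, and log2 processed intensity was reduced by each array's 75th percentile. No probe spot was saturated. Probes well above background on at least 4 of 8 arrays were kept (28626), and the brightest kept probe stood for a gene. The two-sided test was limma 3.58.1 (R 4.3.3, lmFit then eBayes). Its p-values were adjusted by Benjamini-Hochberg across 21362 genes. The number of arrays limits the precision. A two-sided exact permutation test of 4 against 4 arrays cannot go below 0.0286, which every gene with groups that do not overlap reaches. Where no array of a group had a gene well above background, only a bound is given, written as at least N-fold, against, on each array, the higher of the gene's own signal and the lowest signal well above background. The script was tested on simulated data. Gene names and mm9 positions are those of the array design. Exons are not given, since transcripts of that build were not used.

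The members and lists were chosen with earlier results of these data known. Every member is named, with its relatives, the Tnk1 and Hprt check, and the up to 4 tested genes with the smallest p of each list. Fam107a, Map3k6 and Mt1 are named for their promoter match, and single marker and list genes named beyond the rule were chosen after their values were seen. A few list genes are not reported here. Alternatives were normexp background with an offset of 50, quantile or median scaling, the deposited values, other filters on dim probes, a common floor, the mean of a gene's probes, array weights, a replicate block, and leaving out arrays.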

Additional observations from a re-analysis of the deposited data

How the results depend on the processing

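Over 19 alternatives, the 9 members gave 171 values, of which 156 kept direction and side of the threshold, 8 lost the call, 7 gained it and 0 changed direction. Fkbp5 (2.38 to 2.62), Zbtb16 (3.12 to 3.83), Tsc22d3 (1.35 to 1.59), Pdk4 (2.29 to 2.87), Errfi1 (1.80 to 2.11) and Nr3c1 (-1.08 to -0.84) passed under each of them. The 171 values are not independent, since the deposited values are the same intensities shifted per array. Several settings also left a difference unchanged, such as 2.49 for Fkbp5 with other filters, a common floor or the replicate block. Besides the omissions already given, Sgk1 lost its call with a common floor (adjusted p = 0.0694), Cebpd gained one with normexp background (0.0412), with array weights (0.0130) and without saline 2 and 4 (0.0378), and Tat with array weights (0.0186) and without saline 2 and 4 (0.0466). Deviations of same-numbered arrays correlated at 0.01, -0.06, 0.10 and 0.02, against -0.23 to 0.20 for other pairs. These values show no common deviation, but cannot tell whether the samples were paired by design. The replicate number was also the slide column. With the replicate number as a block, 5 members were higher and 1 lower, Sgk1 had an adjusted p of 0.0558, and over all genes 787 were higher and 905 lower, against 1268 and 1687 without it. The block gave 7 other glucocorticoid-induced genes higher in place of 13. Array weights gave 2774 genes higher and 3211 lower. Without a filter on dim probes 11809 genes were lower and the median of all genes was -0.33. That setting includes probes well above background on no array, and the part of the background difference in the lower counts was not tested. Without saline 2 and 4 there were 1027 genes lower and 6 of the other induced genes higher. Leaving out 1 array at a time gave 648 to 1541 genes higher, 729 to 1870 lower, and 6 to 14 other induced genes higher. The counts moved by over 1.5 times without doxycycline array 3 (648 higher, 818 lower), doxycycline array 4 (727, 894), saline array 1 (651, 765) and saline array 3 (652, 729). Across the alternatives, 0 to 1 ion transport genes passed as higher and 0 to 3 as lower, 0 to 1 of the receptor complex as higher, 2 to 3 of local steroid handling as higher and 0 to 3 as lower, and 0 to 1 of the relatives as higher and 0 to 5 as lower. The cause of these moves was not tested. The settings for the list counts were chosen after seeing the data. Signal near background limits Il6, Ptgs2, Icam1, Cxcl1, S100a8, Rasd1, Star and Nr3c2.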

Other observations

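Besides the 4 genes with the smallest p, 9 further genes of the list of other glucocorticoid-induced genes rose, and are named here after their values were seen. Il1r2, the decoy receptor that soaks up interleukin 1, rose 4.88-fold (limma adjusted p = 0.00751) and kept its call under all 19 alternatives, though 3 of 4 saline arrays had it well above background and its log2 difference was 1.52 with normexp background in place of 2.29. Angptl4, an inhibitor of lipoprotein lipase, rose 4.98-fold (0.0178), with the call lost only without saline 2 and 4 together (0.0798). Hif3a, a modulator of the hypoxia response, rose 2.88-fold (0.0263), the metallothionein Mt2 2.76-fold (0.0170), and Ddit4, a brake on the growth kinase mTORC1, 2.58-fold (0.0265). The phospholipid-binding Anxa1, known for its anti-inflammatory action, rose 2.05-fold (0.0330), the fasting-responsive factor Foxo1 2.03-fold (0.0366), the zinc-finger factor Klf9 1.77-fold (0.0457) and the transglutaminase Tgm2 1.59-fold (0.0288). Each of the calls of Mt2, Hif3a, Ddit4, Anxa1, Foxo1, Klf9 and Tgm2 was lost on leaving out at least 3 of the 8 arrays singly.

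Of the 20 pairs of a member probe and a group, 0 held an array beyond Dixon's critical value, the Sgk1 value of saline array 4 included.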
